A study of Rattus norvegicus with 16 samples.

Results

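The proteasome genes of the rat hippocampus were followed across 3 times after an infusion of iron into the amygdala. They were found by name: a probe belonged to the set when its RefSeq accession mapped to a rat symbol beginning with Psma, Psmb, Psmc, Psmd or Psme, and Psmb8 and Psmb9 were left out. The rule found 37 genes, and 36 of them were kept among the 26565 features tested, because every array of some group marked their probe as well above background. The exception was Psma8, an alpha subunit of the testis, which was above background on 1 array only. The rule itself uses names and detection and no difference between groups. Where a gene had several probes the brightest was used. Of the 36 genes, 34 encode subunits, assembly chaperones or activators of the proteasome. The other 2, Psmc3ip and Psme3ip1, met the rule by name but are not proteasome subunits. The first is a cofactor of meiotic recombination, and the second a protein that binds an activator of the proteasome. No probe met the rule for 9 further protein-coding genes with such a symbol, among them Psmc6, Psmd8, Psmd11, Psmd14 and Psme4.

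All 16 animals were male Wistar rats that carried a cannula aimed at the right amygdala, implanted under pentobarbital at an age of 5 weeks. Of these, 4 controls received 1 µl of saline at pH 2.2 and were killed 15 days later. The 12 Fe rats received 1 µl of 100 mM FeCl3 at the same pH, a model of posttraumatic epilepsy, and were killed after 5, 15 or 30 days in groups of 4. The right hippocampus, which was not itself infused, was hybridised on 1 Agilent 1-colour array per rat. Controls were taken on day 15 alone, so Fe day 5 and Fe day 30 also differ from them in age and time since surgery. The series text states that the Fe rats had recurrent seizures, without a rate for each rat.

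The proteasome degrades proteins tagged with ubiquitin. Its barrel, the 20S core, is built of an outer ring of alpha subunits on each side of inner rings of beta subunits, of which Psmb5, Psmb6 and Psmb7 cut the substrate. The 19S cap binds ubiquitin chains, unfolds the substrate with a ring of ATPases (Psmc genes) and holds it with further subunits (Psmd genes). Interferon induces the alternative catalytic subunits Psmb8, Psmb9 and Psmb10 and the activator subunits Psme1 and Psme2, and these changes serve antigen presentation. When proteasomes are short, the factor NRF1 raises most subunit genes together through antioxidant response elements. In the brain the proteasome turns over synaptic proteins.

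Upstream sequence was looked up because these modes of control, one common to the subunits and one restricted to the inducible genes, act through different motifs. A RefSeq promoter table on the assembly GRCr8 held 33 of the 36 genes, each with 250 bases before and 50 bases from the transcription start on. The stretches below are the 100 bases before the start, 5′ to 3′ on the gene's strand. The first pair are catalytic subunits, Psmb5 at chr15:32047380-32047479 on the minus strand and Psmb6 at chr10:55737788-55737887 on the plus strand, and capitals mark the core of the antioxidant response element, TGACNNNGC.
Psmb5: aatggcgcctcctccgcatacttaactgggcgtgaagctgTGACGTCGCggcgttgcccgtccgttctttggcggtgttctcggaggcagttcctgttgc
Psmb6: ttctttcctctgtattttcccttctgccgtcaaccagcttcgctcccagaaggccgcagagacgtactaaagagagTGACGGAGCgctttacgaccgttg

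The next 3 belong to interferon-inducible genes, namely Psmb10 at chr19:50743293-50743392 and Psme2 at chr15:33052752-33052851, both on the minus strand, and Psme1 at chr15:33038871-33038970 on the plus strand. Capitals mark a core of the interferon-stimulated response element, a pair of GAAA blocks set 2 bases apart, which was added to the search after the values were seen.
Psmb10: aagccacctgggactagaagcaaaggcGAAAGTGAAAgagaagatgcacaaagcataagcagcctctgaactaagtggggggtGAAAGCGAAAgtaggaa
Psme2: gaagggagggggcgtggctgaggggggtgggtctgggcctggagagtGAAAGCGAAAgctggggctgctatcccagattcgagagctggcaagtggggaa
Psme1: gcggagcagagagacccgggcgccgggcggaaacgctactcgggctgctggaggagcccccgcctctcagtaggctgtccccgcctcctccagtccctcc

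Searched on both strands over the whole window, the antioxidant core lay in 7 of the 33 genes (21.2%) and in 12.1% of all 33469 promoters of the table. Besides Psmb5 and Psmb6 these were Psma3, Psmb2, Psmd1, Psmd3 and Psmd9. The interferon core lay in 5 of the 33 (15.2%) and in 3.92% of all promoters, namely in Psma4, Psmb3, Psmb10, Psmd7 and Psme2, and Psmb10 held it at 2 places. Psme1 and the left-out Psmb9 did not hold these letters in the window, and Psmb8 held them across its start. A CCAAT box lay in 57.6% of the 33 genes and 37.5% of all promoters, the GC box GGGCGG in 69.7% and 33.1%, and TTCNNNGAA, the core of the other interferon motif, in 6.06% and 8.87%, the last also added after the values were seen. These are matches of letters and not measured binding sites, and the data hold no readout of binding.

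Some arrays stood apart in markers of neighbouring tissue. Values from here on are log2 signals, each scaled to the 75th percentile of its array, and medians of marker lists are given as differences from the control mean. The choroid plexus markers (8 of 11 measured) had a median difference of 6.24 on Fe day 30 replicate 3, 3.40 on Fe day 5 replicate 3 and 1.88 on Fe day 5 replicate 2, and the markers of meninges and fibroblasts (10 of 11) had 3.27, 2.68 and 4.54 on the same arrays. Microglia and macrophage markers (11 of 11) had 1.07 on Fe day 15 replicate 4 and 0.95 on Fe day 30 replicate 3. Control arrays lay between -0.31 and 0.21 in the choroid plexus median. Neuronal markers (10 of 12) were well above background on all arrays, with medians of -0.22 to 0.13. The share of probe spots well above background was 74.2% to 81.6%, and no spot was saturated. The 16 arrays lay on 7 slides. Controls took position 1 on their slides, Fe day 5 positions 1 and 2, Fe day 15 position 2 and Fe day 30 positions 2 and 4, so position and group can hardly be told apart.

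No proteasome gene was called at any time. In a limma fit of all 16 arrays with Benjamini-Hochberg adjustment over the 26565 features, 0 of 36 genes had an adjusted p under 0.05 on day 5, 15 or 30 against control, and the lowest adjusted p among them was 0.481, 0.329 and 0.646. Few features of any kind passed: 0% on day 5, 0% on day 15 and 0.00753%, or 2 features, on day 30. At an unadjusted p under 0.05 the genes numbered 0 on day 5, 2 on day 15 and 0 on day 30, where 10.3%, 11.5% and 7.77% of all features passed. The 2 genes were Psmc3ip and Psme3ip1, and in this fit none of the 34 others passed it. At the same scaling, a variance trend with intensity added Psma6 and Psmb7 on day 15. With weights for each array, 3 genes passed on day 5 (Psmc3ip, Psmd6 and Psme3) and 1 on day 30 (Psmd6). On day 15 these weights gave 5 (Psma6, Psmb4, Psmc3ip, Psme3 and Psme3ip1). At an adjusted p under 0.05 they called 0 features on day 5, 184 on day 15 and 25 on day 30, with no proteasome gene among them. Without control replicate 3, Psma3 and Psmb7 passed on day 5. No proteasome gene passed the adjusted threshold under these settings, and unadjusted shares of all features were not counted for them. With quantile normalization in place of the 75th percentile, 3 genes passed the unadjusted threshold on day 5 (Psma3, Psmb7 and Psmc2). On day 15 there were 8 (Psma1, Psma6, Psmb4, Psmb7, Psmc2, Psmc3ip, Psmc4 and Psme3ip1), and on day 30 there were 5 (Psma1, Psmb1, Psmb4, Psmb7 and Psme3ip1). Again 0 of the genes passed the adjusted threshold, beside 0 of all features on day 5, 0 on day 15 and 8 on day 30. Unadjusted shares of all features were not counted for this normalization either. The shares of the main fit are therefore not a background for these counts. The moderated F-test over the 4 groups gave 0 genes at either threshold, against 8.34% of all features unadjusted and 0% adjusted, and its lowest p among the genes was 0.0728, for Psme3ip1, with an adjusted p of 0.621.

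The median log2 difference from control over the 36 genes was -0.0079 on day 5, 0.043 on day 15 and 0.0027 on day 30, beside -0.017, 0.0014 and -0.013 over all features. On day 5 there were 15 genes above control and 21 below, on day 15 there were 24 above and 12 below, and on day 30 there were 19 above and 17 below. The shares of all features above control were 45.8%, 50.3% and 46.6%. These directions depended on the scaling. With quantile normalization 28, 27 and 28 of 36 genes lay above control. The medians were 0.043, 0.071 and 0.047, beside -0.024, -0.0056 and -0.021 over all features. With median scaling 15, 21 and 13 genes lay above control, and the medians over all features were -0.039, -0.012 and -0.049. With the slide as a fixed block 29, 29 and 28 genes lay above, and the medians over all features were -0.030, -0.012 and -0.017. Without the 3 arrays with high choroid plexus and meninges signal the medians were 0.056, 0.043 and -0.0035, and 28 of 36 genes lay above control on day 5. That day 5 value rests on replicates 1 and 4 only, and replicate 4 had the highest median of the 36 genes of any array, 0.11.

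**Figure D1:**
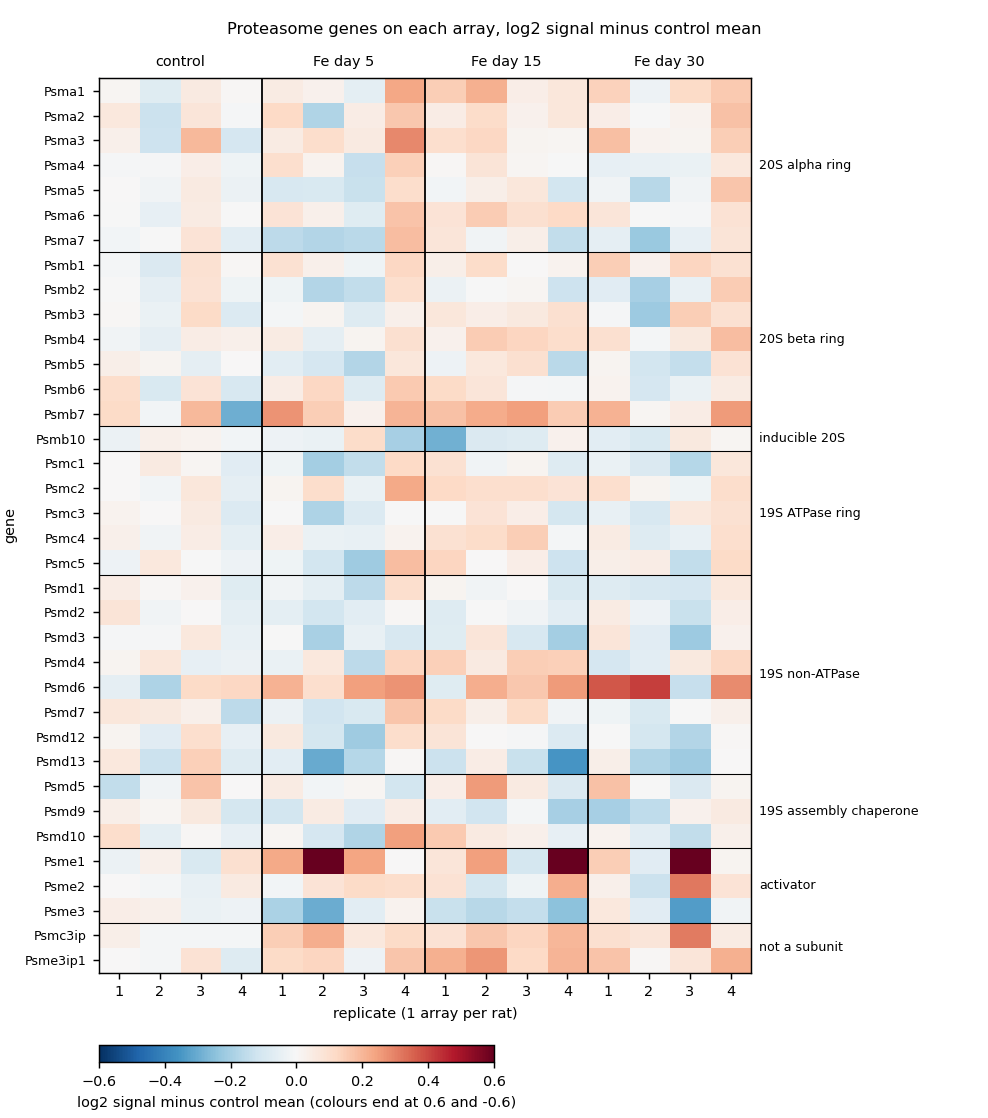
Heat map of the 36 genes (rows, grouped by role) on the 16 arrays (columns, 4 per group), coloured by log2 signal minus the mean of the 4 control arrays, with colours ending at 0.6 and -0.6. Most cells are pale, and the darkest are Psme1 on Fe day 5 replicate 2, Fe day 15 replicate 4 and Fe day 30 replicate 3.

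Groups that do not overlap, where every Fe array lay on the same side of every control array, were counted among the 36 genes and among all features. On day 5 there was 1 gene wholly above control, Psmc3ip, against 2.75% of all features, and 0 wholly below, against 5.09%. On day 15 there were 4 wholly above (Psma6, Psmc2, Psmc3ip and Psme3ip1), a larger share than the 4.11% of all features. Of these, Psmc3ip and Psme3ip1 are not proteasome subunits. Wholly below on day 15 was 1 gene (Psme3), against 5.73%. On day 30 there was 1 wholly above, again Psmc3ip, against 2.62%, and 0 wholly below, against 3.63%. Psma6, Psmc2 and Psme3 are named here because their values were seen to separate.

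The genes were measured with little spread between rats, which sets how large a change could have gone unseen. Their residual SD had a median of 0.096 on the log2 scale, against 0.195 over all features and 0.185 over the 24849 features well above background on all arrays, of which 11.9% lay below the median of the proteasome genes. Psme1 had the highest SD, 0.36, and Psmd6 followed with 0.17. In controls the mean of every gene but Psmc3ip and Psmd6 lay above the 75th percentile of the array. Features of like brightness were not taken apart, so the part of brightness in the low spread was not tested. The 95% interval of the difference from control lay within 1.5-fold either way for 35 of 36 genes on each day, Psme1 being the exception, whereas 68.4%, 68.1% and 69.3% of all features had intervals that narrow. Within 1.3-fold lay 34, 33 and 34 genes, against 42.8%, 41.3% and 44.2% of all features. A change larger than 1.5-fold thus fell outside the interval for each gene but Psme1, while changes of a few percent could not be resolved with 4 rats per group. In whole tissue, a change in 1 cell type and a change in the number of its cells cannot be told apart.

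**Figure D2:**
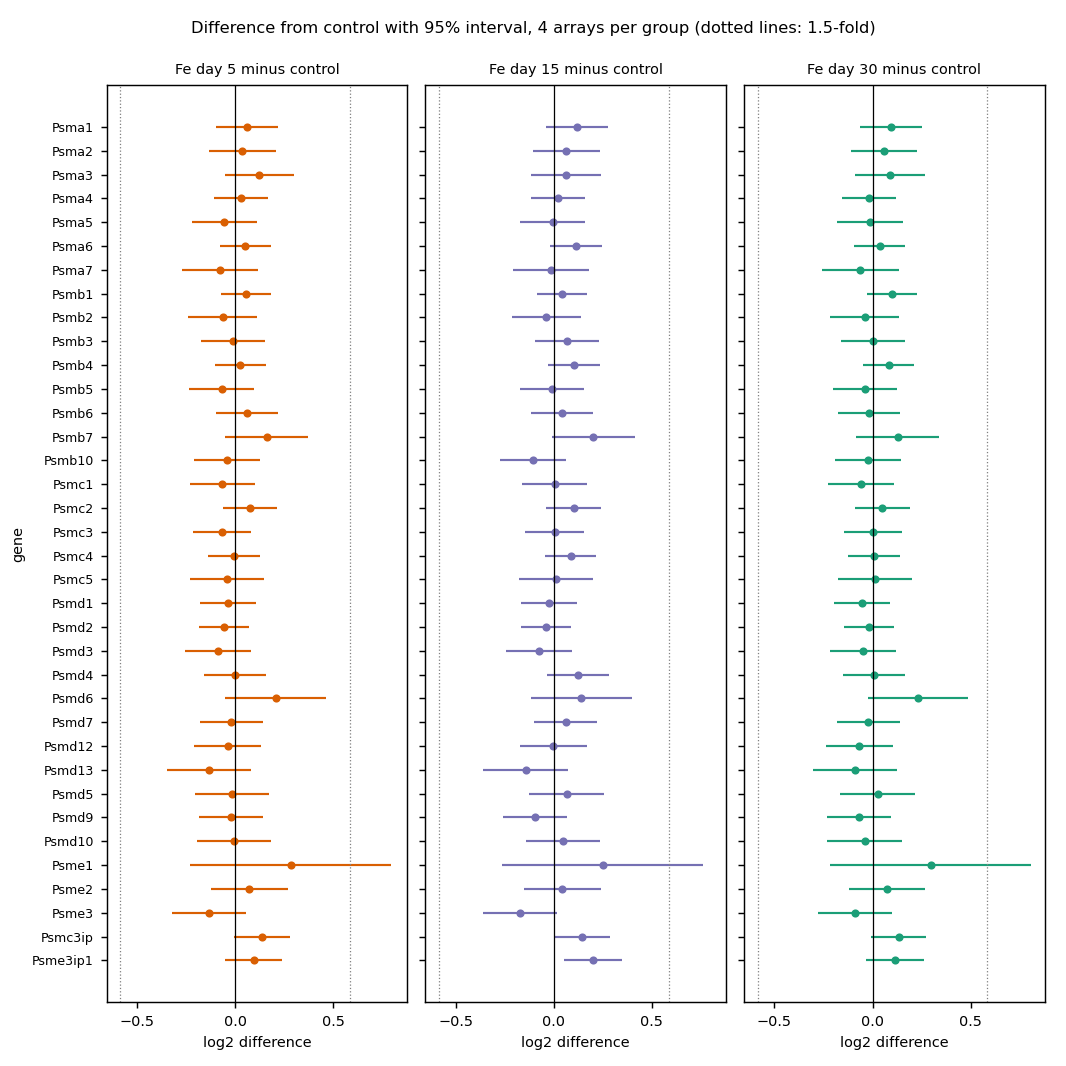
Log2 difference from control of each gene (points) with its 95% interval (lines) at Fe day 5, 15 and 30, with 4 arrays per group and dotted lines at 1.5-fold either way. Only the interval of Psme1 crosses a dotted line.

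The alpha ring, which gates the entry to the core, held 7 genes. Their median difference from control was 0.036 on day 5, 0.063 on day 15 and 0.037 on day 30, with single genes between -0.08 and 0.12. Psma4, the brightest of them, read 5.37, 5.37, 5.42 and 5.35 on the control arrays, 5.48, 5.40, 5.24 and 5.52 on day 5, 5.38, 5.45, 5.39 and 5.37 on day 15, and 5.33, 5.33, 5.34 and 5.44 on day 30. The groups overlapped throughout, and the differences from control were 0.03, 0.02 and -0.02 (SE 0.065 each). Psma6 read 5.22, 5.16, 5.27 and 5.22 in controls and 5.30, 5.37, 5.31 and 5.33 on day 15. Those day 15 arrays lay just above the controls, by 0.11 in the mean (SE 0.061, adjusted p = 0.486 in limma), and a second, dimmer probe of the gene differed by 0.098.

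The beta ring held 7 genes, with medians of 0.027, 0.042 and 0.0028 and single genes between -0.07 and 0.20. Psmb5, the chymotrypsin-like subunit and the main target of proteasome inhibitors, read 4.59, 4.57, 4.51 and 4.56 in controls, 4.50, 4.46, 4.39 and 4.63 on day 5, 4.53, 4.62, 4.65 and 4.39 on day 15, and 4.57, 4.45, 4.42 and 4.64 on day 30. The control arrays were tightly grouped and the Fe arrays spread to both sides of them, with differences of -0.07, -0.01 and -0.04 (SE 0.077). Psmb6, the caspase-like subunit, read 3.28, 3.08, 3.25 and 3.07 in controls and between 3.07 and 3.33 on all Fe arrays. Its differences were 0.06, 0.04 and -0.02 (SE 0.073).

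Psmb7, the trypsin-like subunit, read 3.25, 3.12, 3.33 and 2.85 in controls, 3.41, 3.28, 3.16 and 3.34 on day 5, 3.31, 3.36, 3.38 and 3.29 on day 15, and 3.35, 3.15, 3.18 and 3.39 on day 30. All groups overlapped with the controls, whose replicate 4 was the lowest of the 16 arrays. The difference was 0.16 on day 5, 0.20 on day 15 and 0.13 on day 30 (SE 0.099, adjusted p = 0.543, 0.452 and 0.725 in limma). Without control replicate 4 it was 0.064, 0.10 and 0.033 (SE 0.085). Within the slides that held a control, the day 15 arrays were above it by 0.19, 0.03 and 0.54, and the last of these was measured against control replicate 4. On each of these slides the control was in position 1 and the day 15 array in position 2.

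The ATPase ring of the cap was represented by 5 of its 6 genes, Psmc1 to Psmc5, with medians of -0.041, 0.011 and 0.0076 and single genes between -0.07 and 0.10. On day 5, 1 of the 5 lay above control, on day 15 all 5 and on day 30 a total of 4. Psmc5, the brightest probe of the set, read 6.44, 6.53, 6.47 and 6.44 in controls, 6.45, 6.36, 6.26 and 6.66 on day 5, 6.60, 6.47, 6.51 and 6.35 on day 15, and 6.50, 6.51, 6.33 and 6.59 on day 30. Arrays of every Fe group lay on both sides of the controls, and the differences were -0.04, 0.01 and 0.01 (SE 0.088). Psmc2 read 4.59, 4.57, 4.65 and 4.53 in controls and 4.70, 4.69, 4.68 and 4.67 on day 15. These groups separated narrowly, by 0.10 in the mean (SE 0.065, adjusted p = 0.560 in limma).

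The 8 measured non-ATPase subunits of the cap had medians of -0.036, -0.012 and -0.034 and single genes between -0.14 and 0.23. Of the 8 genes, 7 lay below control on day 5, 5 on day 15 and 6 on day 30, each by less than its interval resolved. Psmd2, a large scaffold of the base of the cap and the brightest of them, read 6.16, 6.06, 6.09 and 6.03 in controls, 6.03, 5.98, 6.02 and 6.09 on day 5, 6.01, 6.08, 6.06 and 6.02 on day 15, and 6.14, 6.05, 5.95 and 6.12 on day 30. It had the smallest residual SD of the set, 0.059, and its differences were -0.06, -0.04 and -0.02 (SE 0.059). The probes of Psmd1, the other large scaffold, differed in sign on day 30, at -0.05 for the brighter and 0.10 for the dimmer.

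Psmd6, a subunit of the lid of the cap, had the widest spread after Psme1. It read -0.19, -0.33, -0.03 and -0.02 in controls, 0.07, -0.04, 0.10 and 0.13 on day 5, -0.22, 0.07, 0.02 and 0.11 on day 15, and 0.23, 0.27, -0.28 and 0.14 on day 30. Of the 4 day 30 arrays, 3 were above every control, while replicate 3, the array with the most choroid plexus signal, was below all controls but 1. The difference was 0.21, 0.14 and 0.23 (SE 0.12, adjusted p = 0.522, 0.671 and 0.647 in limma). Without Fe day 30 replicate 3 the day 30 difference was 0.36 (SE 0.097), with an unadjusted p of 0.0027 and an adjusted p of 0.464 in limma.

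The 3 chaperones that assemble the base of the cap, Psmd5, Psmd9 and Psmd10, had medians of -0.016, 0.047 and -0.040. Psmd9 read 2.43, 2.40, 2.45 and 2.28 in controls, 2.28, 2.44, 2.32 and 2.44 on day 5, 2.33, 2.28, 2.38 and 2.19 on day 15, and 2.19, 2.24, 2.42 and 2.44 on day 30. The groups overlapped, with differences of -0.02, -0.10 and -0.07 (SE 0.076).

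The activators that cap the core in place of the 19S particle held the most variable gene. Psme1, the alpha subunit of the interferon-inducible activator PA28, differed from the control mean by -0.04, 0.03, -0.09 and 0.10 on the control arrays, by 0.23, 0.67, 0.24 and 0.0012 on day 5, by 0.07, 0.25, -0.10 and 0.78 on day 15, and by 0.15, -0.07, 1.09 and 0.014 on day 30. In each Fe group 1 array stood far above the rest: day 5 replicate 2 at 1.59 times the control mean, day 15 replicate 4 at 1.71 times and day 30 replicate 3 at 2.13 times. The remaining Fe arrays lay between -0.10 and 0.25. The group differences were 0.28, 0.25 and 0.30 (SE 0.24, adjusted p = 0.666, 0.714 and 0.738 in limma). Those of day 15 and day 30 rested mainly on single rats, whereas on day 5 replicates 1 and 3 also lay above the control mean, at 0.23 and 0.24. Without the named array of the day the difference was 0.16 on day 5, 0.073 on day 15 and 0.031 on day 30.

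The other inducible genes followed to different degrees on those arrays. Psme2, the partner subunit of Psme1 in the same activator, read 2.20, 2.19, 2.15 and 2.25 in controls, 2.19, 2.28, 2.31 and 2.31 on day 5, 2.28, 2.10, 2.18 and 2.42 on day 15, and 2.23, 2.07, 2.52 and 2.28 on day 30. Its highest arrays on day 15 and day 30 were those of Psme1, at 0.22 and 0.32 above the control mean, and on day 5 the array highest in Psme1 was 0.08 above it. The group differences were 0.07, 0.04 and 0.07 (SE 0.091). Without Fe day 15 replicate 4 the day 15 difference was -0.014, and without Fe day 30 replicate 3 the day 30 difference was -0.0061. Psmb10, the inducible subunit that replaces Psmb7, read 3.12, 3.19, 3.18 and 3.14 in controls, 3.12, 3.12, 3.26 and 2.96 on day 5, 2.87, 3.07, 3.08 and 3.18 on day 15, and 3.09, 3.07, 3.21 and 3.17 on day 30. On the 3 arrays high in Psme1 it differed from the control mean by -0.04, 0.02 and 0.06, and its group differences were -0.04, -0.11 and -0.02 (SE 0.078).

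The inducible subunits left out by the rule varied more. On the same 3 arrays Psmb8 was 0.68, 1.06 and 0.78 above its control mean and Psmb9 was 1.02, 1.07 and 1.65 above. The mean differences from control on day 5, 15 and 30 were 0.07, -0.07 and -0.20 for Psmb8. For Psmb9 they were 0.43, 0.33 and 0.39. The group medians of Psmb8 were 0.10, -0.36 and -0.48, and its lowest Fe arrays were at -0.59, -0.64 and -0.61. Fe day 5 replicate 3 was also high in Psmb9, at 0.92, and in Psmb8, at 0.46, with 0.24 in Psme1. The median of 14 interferon-response genes was 0.60 on Fe day 5 replicate 2, 0.70 on Fe day 5 replicate 3, 1.57 on Fe day 15 replicate 4 and 1.13 on Fe day 30 replicate 3, and between -0.33 and 0.23 on the other 12 arrays. Of these 4 arrays, 3 were those named above for choroid plexus and meninges markers and 2 were those named for microglia markers. Fe day 15 replicate 4 also lay above the controls in the choroid plexus median, at 1.25, and in that of meninges and fibroblasts, at 1.07. The part of these tissues and cells in the level of Psme1 was not tested.

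**Figure D3:**
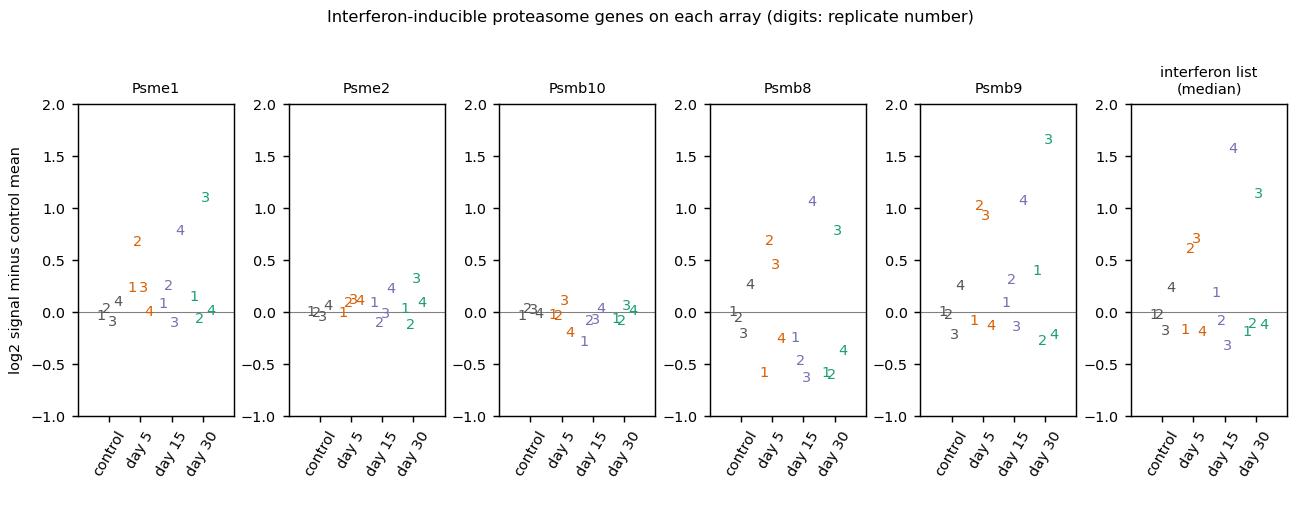
Log2 signal minus the control mean of Psme1, Psme2, Psmb10, Psmb8 and Psmb9, and the median of 14 interferon-response genes, on each array (digits are replicate numbers, colours are groups). Fe day 5 replicate 2, Fe day 15 replicate 4 and Fe day 30 replicate 3 are high in Psme1, Psmb8, Psmb9 and the interferon median, whereas Psmb10 stays near 0 on them.

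Psme3, the nuclear activator PA28 gamma, which interferon does not induce, ran low on day 15. It read 3.77, 3.76, 3.69 and 3.70 in controls, 3.54, 3.44, 3.67 and 3.75 on day 5, 3.60, 3.57, 3.59 and 3.49 on day 15, and 3.80, 3.66, 3.40 and 3.71 on day 30. Every day 15 array lay below every control, with a mean difference of -0.17 (SE 0.088, adjusted p = 0.466 in limma). The lowest array of each Fe group was the one highest in Psme1.

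The 2 genes that are not proteasome subunits gave the lowest p-values of the set. Psmc3ip read -0.74, -0.78, -0.78 and -0.79 in controls, -0.63, -0.55, -0.71 and -0.66 on day 5, -0.69, -0.61, -0.64 and -0.57 on day 15, and -0.68, -0.70, -0.46 and -0.72 on day 30. All 12 Fe arrays lay above all controls, which were unusually close together, and the differences were 0.14, 0.14 and 0.13 (SE 0.066). The unadjusted p was 0.0586, 0.0467 and 0.0649 and the adjusted p 0.481, 0.430 and 0.646 in limma. Without Fe day 30 replicate 3 its day 30 difference was 0.072. The 3 comparisons share the same 4 control arrays.

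Psme3ip1 read 1.46, 1.44, 1.55 and 1.38 in controls, 1.57, 1.59, 1.42 and 1.62 on day 5, 1.67, 1.72, 1.57 and 1.66 on day 15, and 1.63, 1.46, 1.53 and 1.67 on day 30. The day 15 arrays lay above all controls, and those of day 5 and day 30 overlapped with them. The differences were 0.09, 0.20 and 0.12 (SE 0.069), with an adjusted p of 0.609, 0.329 and 0.669 in limma. Within the 3 slides that held a control and a day 15 array, the latter was higher by 0.22, 0.18 and 0.20. On each of these slides the control was in position 1 and the day 15 array in position 2. With position as a term in limma, Psme3ip1 did not pass an unadjusted p under 0.05 on day 15.

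The Fe days were also compared with one another. At an adjusted p under 0.05 in limma 0 of 36 genes passed in each of the 3 comparisons, as did 0% of all features, and at an unadjusted p under 0.05 again 0 of 36 passed. At the latter threshold 7.20% of all features passed between day 15 and day 5, 6.49% between day 30 and day 15 and 2.96% between day 30 and day 5. The median difference of the genes was 0.032 from day 5 to day 15, -0.021 from day 15 to day 30 and 0.014 from day 5 to day 30. The 95% intervals of all 36 genes lay within 1.5-fold in each of these comparisons.

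The genes shifted together from array to array more than they differed between groups. The median of the 36 genes on an array, as a difference from the control means, ran from -0.067 on Fe day 30 replicate 2 to 0.11 on Fe day 5 replicate 4. On Fe day 30 replicate 2 only 3 of 36 genes were above their own group mean, and on replicate 4 of that group 32 were, whereas 56.8% and 52.5% of all features were above theirs. On Fe day 5 replicate 4 the count was 31 of 36 and on control replicate 3 it was 29 of 36, beside 46.0% and 47.0% of all features. The mean of the array medians was 0.0022 ± 0.041 (SD, n = 4) in controls, 0.0028 ± 0.078 on day 5, 0.039 ± 0.038 on day 15 and 0.0073 ± 0.066 on day 30, so the groups differed by less than the spread within them.

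The highest medians fell on the brightest arrays, which were also highest in oligodendrocyte markers, and the lowest medians matched less closely. In 4 of 4 groups the array with the highest median was also the one with the highest 75th percentile of processed signal, and in 3 of 4 groups the lowest median was on the array with the lowest percentile. In controls the median was 0.055 at a percentile of 864 on replicate 3 and -0.040 at 553 on replicate 4. On day 5 it was 0.11 at 924 on replicate 4 and -0.067 at 693 on replicate 3. The median of the 9 oligodendrocyte markers was also highest in its group on the array with the highest proteasome median, in 4 of 4 groups, at 0.14 in controls, 0.67 on day 5, 0.58 on day 15 and 0.19 on day 30. Fe day 15 replicate 3 was close behind in these markers, at 0.56, with a proteasome median of 0.031. The lowest oligodendrocyte medians were on control replicate 2, Fe day 5 replicate 2, Fe day 15 replicate 4 and Fe day 30 replicate 1. Of these arrays, only that of day 15 also had the lowest proteasome median of its group. No other marker list was set beside the medians in this way. The part of brightness and of oligodendrocytes in the shifts was not tested.

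**Figure D4:**
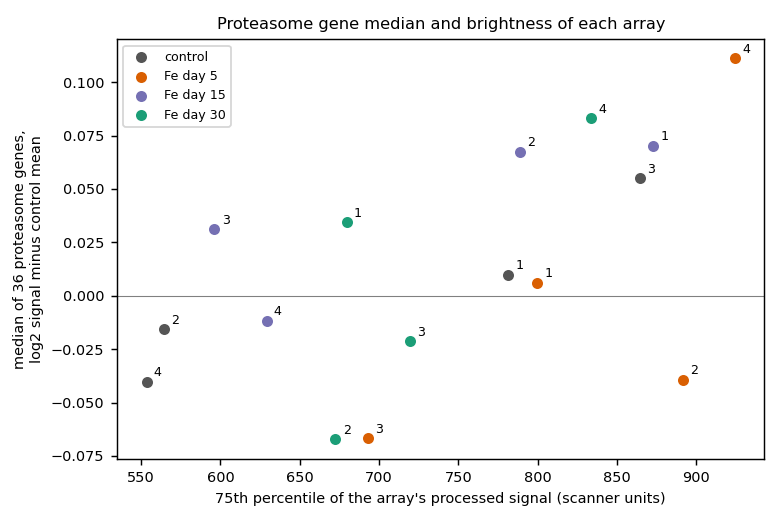
Median of the 36 genes on each array (log2 signal minus control mean) against the 75th percentile of that array's processed signal (scanner units), with colours for groups and digits for replicate numbers. Fe day 5 replicate 4 is highest on both axes, and Fe day 5 replicate 2 is bright with a median below 0.

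No gene of the wider ubiquitin system was called against control either. Of 40 measured genes for core assembly, proteasome-bound proteins, ubiquitin, its conjugation and recycling, shuttles and transcriptional control, 0 passed an adjusted p under 0.05 in limma on any day against control. Their median differences were -0.033 on day 5, 0.011 on day 15 and -0.032 on day 30. At an unadjusted p under 0.05 on day 5, 2 were higher, namely Psmg2, a chaperone of core assembly, by 0.26 (SE 0.11) and Psmf1, an inhibitor of the proteasome, by 0.20 (SE 0.082), and 1 was lower, the polyubiquitin gene Ubb, at -0.20 (SE 0.082). On day 15 the unfoldase Vcp was higher by 0.15 (SE 0.068), and on day 30 the deubiquitinase Usp7 was lower at -0.19 (SE 0.086). These counts of 3, 1 and 1 of 40 stand beside the 10.3%, 11.5% and 7.77% of all features given above. Of the 8 genes listed for transcriptional control 6 were measured, and Nfe2l1, the gene of NRF1, was not among them.

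Of the 14 interferon-response genes, 0 passed the adjusted threshold in limma against control. The median differences were 0.20 on day 5, 0.30 on day 15 and 0.17 on day 30. At an unadjusted p under 0.05 there was Mx1, an antiviral GTPase, on day 5, at 2.48 (SE 1.15), and Tap2, a peptide transporter of antigen presentation, on day 30, at 0.48 (SE 0.18), which is 1 of 14 on each of these days and 0 of 14 on day 15, beside the same 10.3%, 7.77% and 11.5% of all features.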

How the data were processed

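Gene expression was measured on 16 Agilent 1-colour arrays, 4 for each of 4 groups taken from the labels, 1 array per rat. Images were read with Agilent Feature Extraction 9.5, per the submitters' processing notes. Per the file headers, the deposited processed signal is a background-subtracted intensity on a linear scale, and the flags for spots were used as deposited. The deposited series table held the same intensity in 100% of entries at a relative tolerance of 1e-06. Its scale and centring are therefore those of the processed signal. Each array held 43379 spots for transcripts and 1639 control spots, which were left out.

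From the deposited intensity, log2 values were computed and scaled by subtracting the 75th percentile of their own array. Non-uniform and outlier spots were left out, spots of a probe were averaged, and probes were kept if every array of some group marked them as well above background. Names came from a RefSeq table on GRCr8, which matched 15080 of 16116 probes with a RefSeq mRNA accession, and the brightest probe of a gene was used, giving 26565 features. Levels of different probes were not compared, since a probe's signal depends on its sequence. A table of RefSeq names holds 44 pseudogenes named after these genes, and cross-hybridisation with them was not tested.

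One limma 3.58.1 fit (R 4.3.3) of group means over the 16 arrays gave two-sided p-values, 12 residual degrees of freedom and Benjamini-Hochberg adjustment within a comparison over all features, with calls at an adjusted p under 0.05. These p-values reflect the spread between rats, and precision is limited by the number of arrays. The rule for the genes described singly took the 3 of lowest p against control on each day (up to 6 had more passed an unadjusted p under 0.05), the catalytic and inducible subunits and the brightest gene of each other role, 13 in all. Psma6, Psmc2 and Psme3 were added because their groups separated. The members and lists were chosen with earlier results of these data known. The alternatives were other scalings, background correction, filters, probe rules, blocks, variance models and leaving out arrays. Position on the slide was added after the data were seen. Replicate numbers were not treated as pairs in the main fit. The 24 correlations of same-numbered arrays between groups ran from -0.41 to 0.39, and 5 were over 0.1. Arrays of different numbers were not compared in this way, so these values cannot show whether the numbers pair the rats.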

Additional observations from a re-analysis of the deposited data

Results flagged for a closer look

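In 76 groups of 4 arrays, from 18 genes (the genes described singly with Psmb8 and Psmb9) and the median of the set, 2 single values lay far from the other 3 by Dixon's criterion, and chance alone sets apart about 1 group in 20. Psmc3ip in control replicate 1 was 0.036 above the control mean, with the other controls very close together, so the gap is small in size. Psma4 in Fe day 30 replicate 4 was 0.064 above the control mean, with the other 3 arrays of that group below that mean. That array also had the highest median of the 36 genes in its group.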

How the results depend on the processing

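Across 33 alternatives no proteasome gene reached an adjusted p under 0.05, and the lowest adjusted p was 0.139. Of 1287 values against control of the 13 genes chosen by the rule under these alternatives, 1212 had the sign given above and 73 changed sign where the value lay within 1 SE of 0. Psmb10 on day 15 reversed to 0.10 and Psme3ip1 on day 30 to -0.0063 with the position on the slide as a term, which was chosen after seeing the data and rests on 1 Fe day 5 array in comparisons with control. That term also moved the median of the 36 genes to -0.0995 on day 15 and -0.164 on day 30, with 26 and 29 genes below control. The medians over all features were 0.019 and 0.027. At an unadjusted p under 0.05 in limma 1 gene passed on day 5 (Psma7) and 2 on day 15 (Psma7 and Psme3). On day 30 there were 5 (Psma5, Psma7, Psmb2, Psmd10 and Psmd7). Unadjusted shares of all features were not counted with this term. Without scaling the median was 0.271 on day 5, 0.116 on day 15, 0.097 on day 30, -0.174 between day 15 and day 5 and -0.170 between day 30 and day 5, where all features shifted by 0.262, 0.075, 0.081, -0.192 and -0.180. With the slide as a fixed block the median was 0.071 on day 5 and 0.062 on day 30. Without the 3 arrays with high choroid plexus and meninges signal it was 0.056 on day 5 and -0.053 between day 30 and day 5, with only replicates 1 and 4 left on day 5. Leaving out single arrays gave medians of -0.024 to 0.019 on day 5, 0.021 to 0.059 on day 15 and -0.029 to 0.032 on day 30, and of -0.0043 to 0.071, -0.059 to 0.0088 and -0.016 to 0.046 between day 15 and day 5, day 30 and day 15, and day 30 and day 5. The cause of these moves was not tested.

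The replicate block left the median at -0.0079 on day 5, 0.043 on day 15 and 0.0027 on day 30, since the design is balanced, and called 0 genes of the set.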
